A study of Mus musculus with 13 samples.

Results

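The genes described here encode the nuclear subunits of respiratory complexes II to V. Members were the rows of the deposited gene table whose Ensembl ID belongs to a protein-coding mouse gene with a symbol of the succinate dehydrogenase subunits (Sdha to Sdhd), the complex III subunits (Uqcr symbols and Cyc1), cytochrome c (Cycs), the cytochrome c oxidase subunits of the Cox4 to Cox8 families, or ATP synthase (Atp5 symbols). That gave 50 of 55471 genes, chosen by name and not by their values: 4 of complex II, 9 of complex III, the single gene of cytochrome c, 18 of complex IV and 18 of complex V. A filter on low counts was passed by 47 members and by 15000 genes in all.

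Poly(A)-selected RNA of whole mouse hearts was sequenced in 3 groups, labelled WT control (5 libraries), R502W control (4 libraries) and R502W mavacamten (4 libraries). R502W is an amino acid change in cardiac myosin binding protein C, a thick-filament protein of the sarcomere, and mavacamten is a small-molecule inhibitor of the cardiac myosin motor. The treated R502W mice received 2.5 mg/kg of mavacamten per day in drinking water for 21 weeks, and the other groups are labelled control. The series' design gives an age of 24 weeks for all mice, while the extraction protocol speaks of hearts aged 3 and 18 weeks. Zygosity, strain and sex are not given in the sources used here, and no treated WT group was analysed here. The labels list the libraries as separate samples without saying that each came from its own animal, so a p-value reflects only how far these samples varied, which may be technical.

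Complexes II, III and IV pass electrons from succinate and ubiquinol to oxygen, with cytochrome c as the mobile carrier between complexes III and IV. Complexes III and IV pump protons across the inner mitochondrial membrane, and complex V, the ATP synthase, uses the return flow of protons to make ATP. Heart muscle is among the tissues richest in these complexes, and several complex IV subunits have a form specific to heart and skeletal muscle.

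The libraries held between 15350622 and 19361103 counts, and 18.6% to 27.2% of them came from genes of the mitochondrial genome. Some libraries stood apart in ways the groups do not explain. The library of WT control replicate 2 had 473 CPM (counts scaled to library size, the unit used throughout) in 9 summed T cell and thymus markers, against 1.76 to 9.05 CPM in the other libraries. Airway and lung markers summed to 383 CPM in the same library, to 610 CPM in WT control replicate 3 and to 152 CPM in replicate 1 of the treated group, against at most 25 CPM elsewhere. Ucp1, the uncoupling protein of brown fat, was high in 1 library of each group, at 102 CPM in WT control replicate 3, at 96.3 CPM in replicate 1 of the R502W controls and at 138 CPM in replicate 4 of the treated hearts, with at most 15.9 CPM elsewhere. Bmp10, an atrial gene, was low in those same WT and R502W control libraries (8.33 and 1.57 CPM) and in replicate 3 of the treated hearts (6.23 CPM), with 307 CPM or more elsewhere. Not all atrial genes went with Bmp10: Myl7 stood at 1240, 612 and 434 CPM in these libraries, in no group the lowest. The 8 atrial markers summed to 7590 and 6360 CPM in the WT and R502W control libraries, inside their groups' ranges. In the treated library they summed to 3820 CPM, the lowest of all. All 10 cardiomyocyte markers were detected in every group, with summed levels of 53600 to 80100 CPM in WT control, 75900 to 87700 CPM in R502W control and 71200 to 98400 CPM in R502W mavacamten hearts. The markers did not move as 1. Myh6, the largest of them, ran from 18100 to 27600 CPM in WT control and from 31900 to 35100 CPM in R502W control hearts. Tnni3 ran from 2250 to 3390 CPM and from 1980 to 2570 CPM. In these whole-heart samples, fewer cells of a type and less RNA per cell cannot be told apart.

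Levels differed widely between members when set per kilobase of the principal transcript. The highest were the catalytic F1 subunits of ATP synthase, Atp5b (beta) at 2020 CPM per kb and Atp5a1 (alpha) at 1470 CPM per kb over all libraries. Complex IV followed with Cox4i1, a core nuclear subunit, at 1290 CPM per kb and Cox6a2, the muscle form of subunit 6a, at 1120 CPM per kb. Uqcrc1, a core protein, was highest in complex III at 581 CPM per kb, and Sdhb, the iron-sulphur subunit, was highest in complex II at 446 CPM per kb. Cycs stood at 98.5 CPM per kb. The lowest of the 47 tested members were Cox6b2, known from testis, at 2.13 CPM per kb, Cox4i2, a form known from lung, at 6.61 CPM per kb, and Atp5s, the coupling factor B, at 7.91 CPM per kb. Members below the filter were Cox8c and Cox7b2, both known from testis, and a second Ensembl ID named Atp5o (ENSMUSG00000116933). Cox8c had 0 counts in all 13 libraries, which allows up to 0.155 to 0.22 CPM depending on the library (3 counts, counting error only). Cox7b2 had 1 or 2 counts in 4 libraries and 0 in the others, and the second Atp5o ID had 1 count in 1 library.

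In R502W control against WT control hearts, 8 of the 47 tested members were lower and 0 were higher at an adjusted p under 0.05 (edgeR quasi-likelihood test, Benjamini-Hochberg over all 15000 genes). Over all genes tested, 3.75% were lower and 8.63% higher. The 8 genes were Uqcrh, Uqcrb and Uqcr10 of complex III, Cox7a2 and Cox6c of complex IV, and Atp5l, Atp5e and Atp5o of complex V. None is a catalytic subunit, and their fitted changes ran from -19.3% (Uqcr10) to -31.8% (Uqcrh). Their principal transcripts are also short, at 421 to 838 bases, against 1363 to 2900 for Cyc1, Uqcrfs1, Atp5b, Atp5a1 and Sdha. Fold changes ran with gene length, as described below, so subunit type and length cannot be told apart here. The median log2 fold change of the tested members was -0.26, and 43 of 47 were below 0, against a median of -0.01 and 51.1% below 0 for all genes. At an unadjusted p under 0.05 there were 25 members, each of them lower, where 11.8% of all genes were lower and 17.3% higher at that p. Counts at that p among genes of similar length are given in the account of gene length. Of the 10 cardiomyocyte markers, 0 were lower and 2 were higher in this comparison, Ttn at 0.98 ± 0.20 (SE; edgeR adjusted p = 0.00789) and Ryr2 at 0.86 ± 0.22 (SE; 0.021), both very long genes. Of the same 10, 5 had a log2 fold change below 0, the lowest at -0.32. Other cell types' markers were called as well (edgeR). Higher were 3 of 9 endothelial markers (Kdr, Cldn5 and Vwf), 2 of 9 mural, 2 of 9 fibroblast (Col1a1 and Col3a1), 1 of 8 macrophage and 1 of 6 brown fat markers, and the skeletal muscle actin Acta1. Lower were 2 of 6 B cell markers and all 3 airway and lung markers tested. Called or not, 2 of 9 endothelial, 4 of 9 mural, 4 of 9 fibroblast, 4 of 8 macrophage and 2 of 6 brown fat markers were below 0. Summed endothelial markers ran from 1130 to 1400 CPM in WT control and from 1290 to 1510 CPM in R502W control hearts, and summed fibroblast markers from 2740 to 3660 CPM and from 3140 to 3630 CPM. The part of cell makeup in the members' values was not tested.

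**Figure D1:**
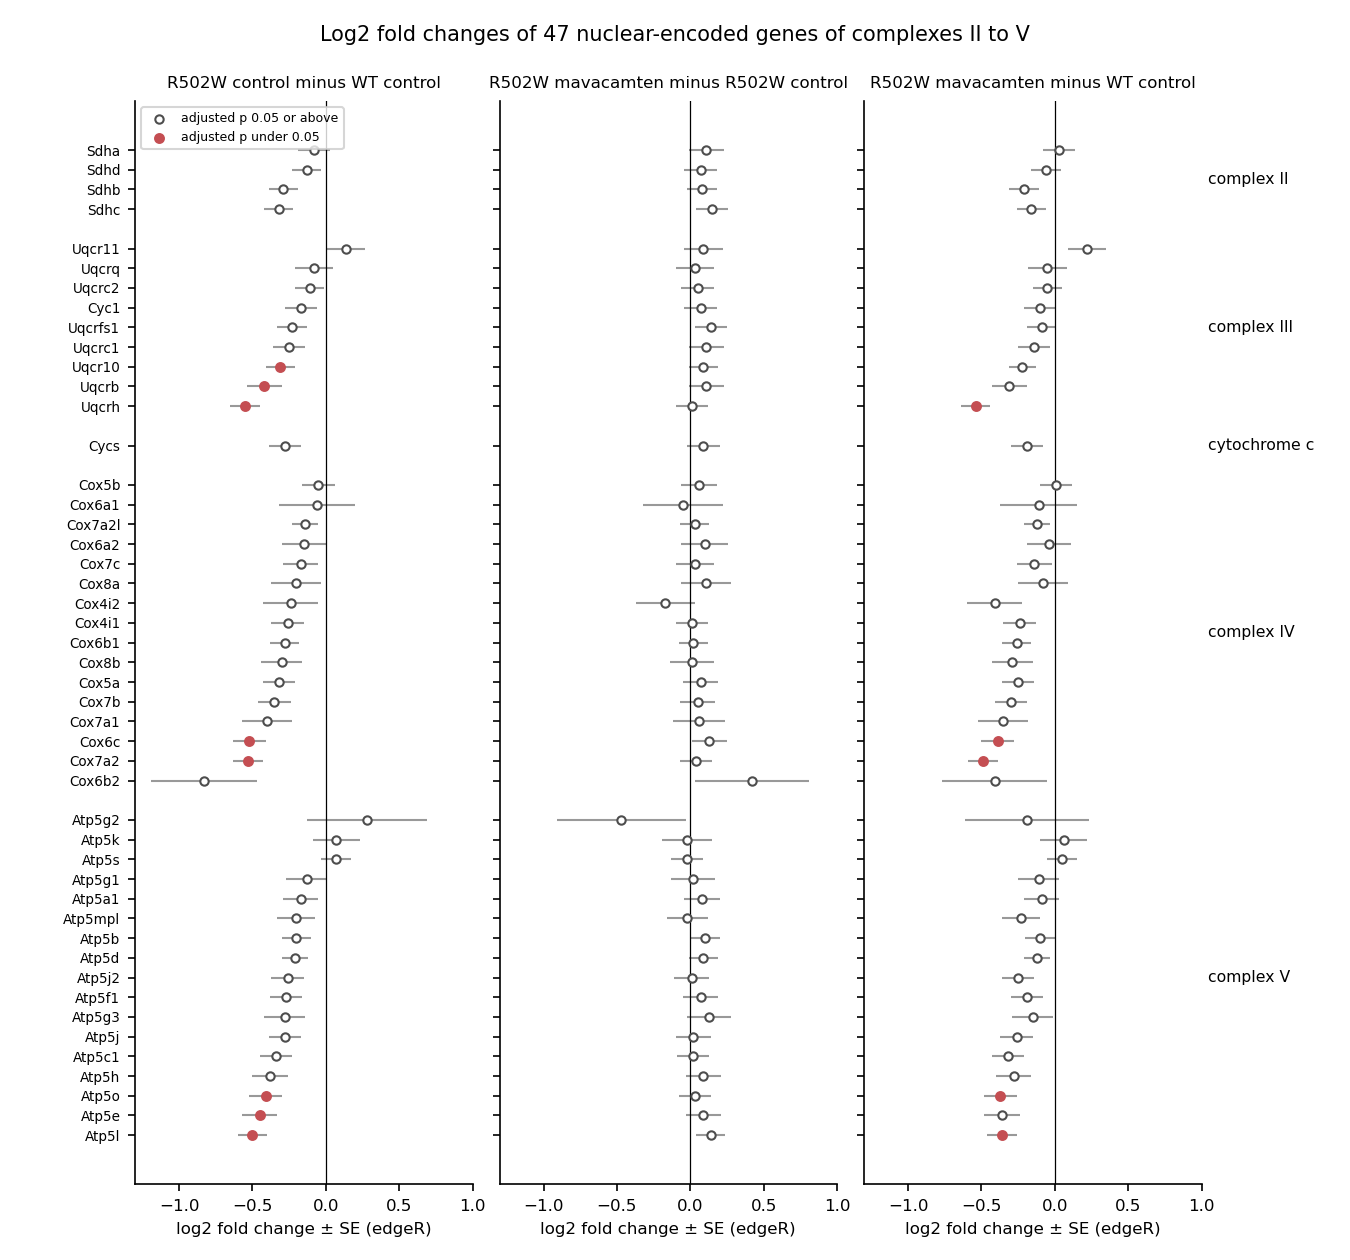
Log2 fold changes with standard errors (horizontal axes) of the 47 tested members, 1 row a gene, grouped by complex, for the 3 comparisons. Filled points passed an adjusted p under 0.05 in edgeR: 8 genes in R502W control against WT control, 0 under treatment and 5 in treated R502W against WT control, each of them below 0.

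Complex III had 3 of 9 members lower, all small accessory subunits, with a median log2 fold change of -0.23. Uqcrh, the hinge protein that links cytochrome c1 with cytochrome c, had the smallest p of any member. In WT control hearts Uqcrh stood at 320, 338, 254, 280 and 271 CPM, and in R502W control hearts at 192, 183, 200 and 223 CPM. Every R502W control library lay below every WT control library, and WT control replicates 1 and 2 were the highest. The log2 fold change of Uqcrh was -0.55 ± 0.10 (SE) with an edgeR adjusted p of 0.00481.

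Uqcrb, known as the ubiquinone-binding protein, stood at 173, 168, 125, 142 and 135 CPM in WT control and 109, 104, 120 and 112 CPM in R502W control hearts. These ranges did not overlap, although the highest R502W control library came within 5 CPM of the lowest WT library. Its log2 fold change was -0.42 ± 0.12 (SE; edgeR adjusted p = 0.0315), and the call was lost without any 1 of the 4 R502W control libraries. Uqcr10, a small subunit beside cytochrome c1, stood at 155, 145, 119, 138 and 131 CPM against 98.8, 104, 115 and 127 CPM. Here R502W control replicate 4 lay inside the WT control range. The log2 fold change of Uqcr10 was -0.31 ± 0.10 (SE; edgeR adjusted p = 0.0485), lost without WT control replicate 1, 4 or 5 or R502W control replicate 1, 2 or 3. The redox subunits of complex III did not pass: Uqcrfs1, the Rieske iron-sulphur protein, had a log2 fold change of -0.23 ± 0.10 (SE) and Cyc1, cytochrome c1, of -0.17 ± 0.11 (SE). Uqcr11 was the only member of complex III above 0, at 0.14 ± 0.13 (SE).

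Complex IV had 2 of 16 tested members lower, with a median log2 fold change of -0.27 and all 16 below 0. Cox7a2 encodes the widely expressed form of subunit 7a. It stood at 250, 253, 192, 203 and 192 CPM in WT control and 146, 140, 145 and 173 CPM in R502W control hearts, with no overlap. The log2 fold change of Cox7a2 was -0.53 ± 0.10 (SE; edgeR adjusted p = 0.00649). Cox6c, a small membrane subunit with no second form in this list, stood at 475, 504, 361, 388 and 380 CPM against 285, 273, 290 and 329 CPM. All R502W control libraries were again below all WT control libraries, and the log2 fold change was -0.52 ± 0.11 (SE; edgeR adjusted p = 0.00931). Cox4i1, at -0.26 ± 0.11 (SE; edgeR adjusted p = 0.135), did not pass. Cox6b2 had the most negative value of any member, -0.83 ± 0.36 (SE; edgeR adjusted p = 0.148), at 0.394 to 2.15 CPM.

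Complex V had 3 of 17 tested members lower, with a median log2 fold change of -0.26. Atp5l encodes subunit g, a membrane part at the dimer interface of the enzyme. Atp5l stood at 269, 235, 194, 222 and 216 CPM in WT control and 150, 156, 158 and 179 CPM in R502W control hearts. The groups did not overlap, and the log2 fold change was -0.50 ± 0.10 (SE; edgeR adjusted p = 0.00649). Atp5e, the epsilon subunit of the F1 central stalk, stood at 242, 248, 175, 197 and 201 CPM against 135, 146, 156 and 183 CPM. R502W control replicate 4 lay above WT control replicate 3, and the log2 fold change was -0.45 ± 0.12 (SE; edgeR adjusted p = 0.0219). Atp5o encodes the oligomycin sensitivity conferring protein, which ties F1 to the peripheral stalk. Its levels were 782, 713, 584, 640 and 632 CPM against 467, 491, 535 and 529 CPM, without overlap, and its log2 fold change was -0.41 ± 0.11 (SE; edgeR adjusted p = 0.0242). The calls of Atp5e and Atp5o were lost without R502W control replicate 1, 2 or 3. Of the catalytic pair, Atp5b had a log2 fold change of -0.20 ± 0.10 (SE) and Atp5a1 of -0.17 ± 0.12 (SE), and neither passed.

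**Figure D2:**
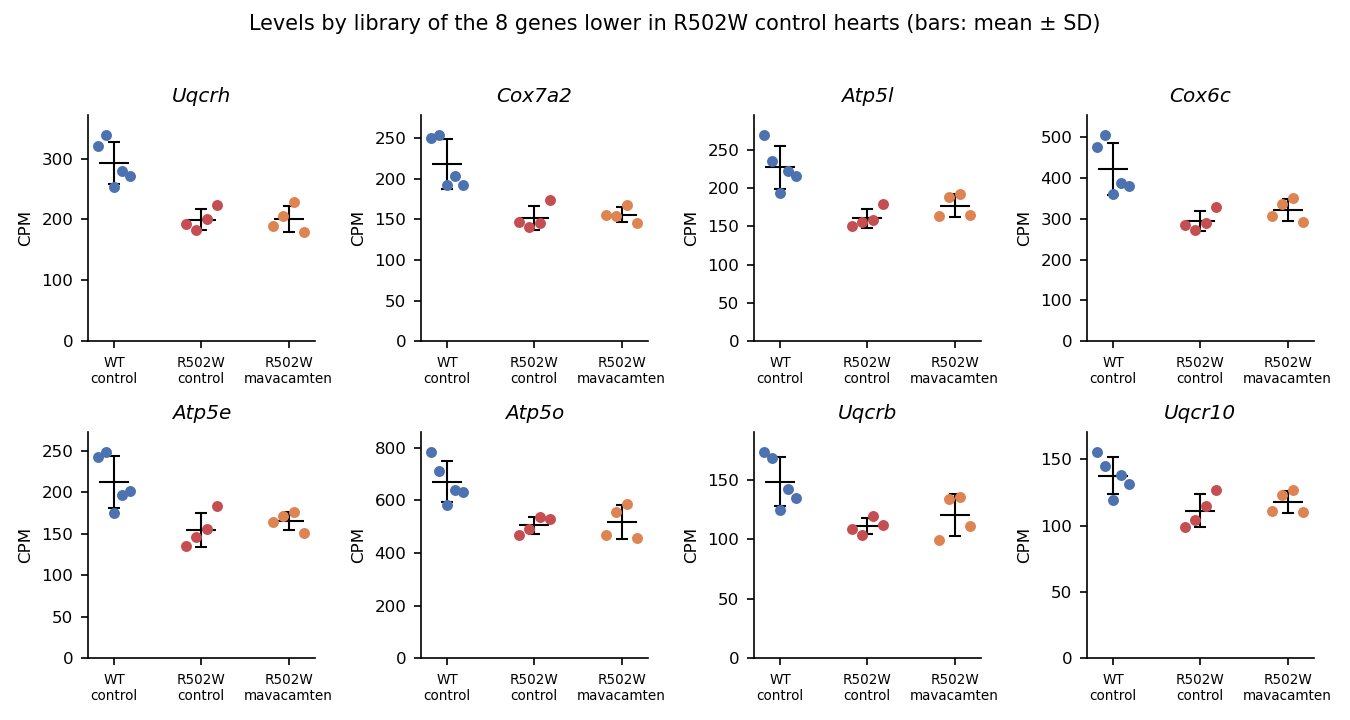
CPM (vertical axes, from 0) of the 8 genes lower in R502W control hearts in each of the 13 libraries, 1 point a library, with the mean and SD of each group. In 6 of the 8 panels every R502W control point lies below every WT control point, and the exceptions are Atp5e and Uqcr10.

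Complex II, which is encoded by the nuclear genome alone, had 0 of 4 members called by edgeR in the genotype comparison; 2 of the 4 had an unadjusted p under 0.05, and DESeq2 called 2. Sdhc, a membrane anchor, had the smallest p, with 428, 384, 339, 357 and 346 CPM in WT control and 274, 283, 298 and 336 CPM in R502W control hearts. Its ranges did not overlap, yet its log2 fold change of -0.32 ± 0.10 (SE) had an edgeR adjusted p of 0.0557. Sdhb stood at -0.29 ± 0.10 (SE; edgeR adjusted p = 0.0657), and Sdha, the flavoprotein, at -0.08 ± 0.11 (SE). Cycs stood at -0.28 ± 0.11 (SE; edgeR adjusted p = 0.107). Counted without regard to the test, 11 of 47 members had every R502W control library below every WT control library (23.4%), where 5.45% of all genes did. Among genes averaging 100 CPM or more, the share was 23.1% of 389 with similar principal transcript lengths and 17.7% of 487 with similar exonic lengths, ranges given in the account of gene length. The members' share, taken over all 47, lay close to that of the former set. Members under 100 CPM are among the 47 and none of them was among the 11, so the sets are not alike in level. No difference was tested.

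Members are short genes, and fold changes in the genotype comparison ran with gene length across the whole table. The median exonic length was 1680 bases for members against 4290 bases for all genes tested. Over 20 bins of exonic length, the median log2 fold change went from -0.17 in the shortest bin to 0.33 in the longest. In each library, the rank correlation across genes between a gene's deviation from its mean and its length was -0.421 to -0.0746 in WT control, 0.0799 to 0.263 in R502W control and 0.113 to 0.226 in R502W mavacamten hearts. The WT and R502W libraries did not overlap in this measure. Genotype and whatever sets this length trend therefore cannot be told apart.

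Members were set beside the 6871 tested non-member genes with exonic lengths of 632 to 4113 bases, the range between the 10th and 90th percentiles of the members. Those genes had a median log2 fold change of -0.12, against -0.26 for members, with 65.6% below 0 and 5.69% called lower. Of the 487 among them with a mean of at least 100 CPM, 10.9% were called lower, with a median of -0.11. When length was taken from the principal transcript (441 to 2138 bases), the 389 genes of at least 100 CPM had a median of -0.17. Of them, 79.7% were below 0 and 13.9% were called lower, against 17% of the members. Members' shares, here and in the comparisons below, are over all 47, including members under 100 CPM, so the sets are not alike in level. An unadjusted p under 0.05 was held by 149 of the 389 and 179 of the 487, in either direction, beside 25 of the 47 members. Whether these shares differ was not tested. Against genes within 10% of its own exonic length, 35 of 47 members lay below the neighbours' median, by a median of -0.14. Cox6c differed by -0.46 from the median of its 1634 length neighbours (-0.06), and Uqcr11 by 0.30 from that of its 91 neighbours (-0.16). The neighbours of Cox6c were taken at its 3567 exonic bases, while its principal transcript has 606 bases.

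With the length trend taken out of each library, 5 members remained lower: Uqcrh, Cox7a2, Atp5l, Cox6c and Atp5e. Their log2 fold changes were then -0.39, -0.37, -0.60, -0.49 and -0.32, with edgeR adjusted p between 0.00354 and 0.0441. Over all genes, 3.53% were lower and 5.19% higher after this step. The 5 are 10.6% of the members, beside 10.3% of the 389 similar genes by principal length. Of the 487 by exonic length, 6.98% were lower. Both sets hold genes of at least 100 CPM, while the members include some at lower levels, and no difference was tested. The median of the members moved to -0.15 with 37 of 47 below 0. The calls of Atp5o (adjusted p = 0.0828), Uqcrb (0.0932) and Uqcr10 (0.191) were lost. With principal transcript lengths in place of exonic lengths, the same 5 genes and Sdhc were lower and the median was -0.10. That is 12.8% of members, where 2.76% of all genes and 5.66% of the 389 genes of similar principal length and at least 100 CPM were lower. In the order above, the 5 genes then stood at -0.36, -0.34, -0.30, -0.32 and -0.25, with edgeR adjusted p between 0.00781 and 0.0472. Atp5l, whose value differed most between the lengths, has 6443 exonic bases but 544 in its principal transcript.

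**Figure D3:**
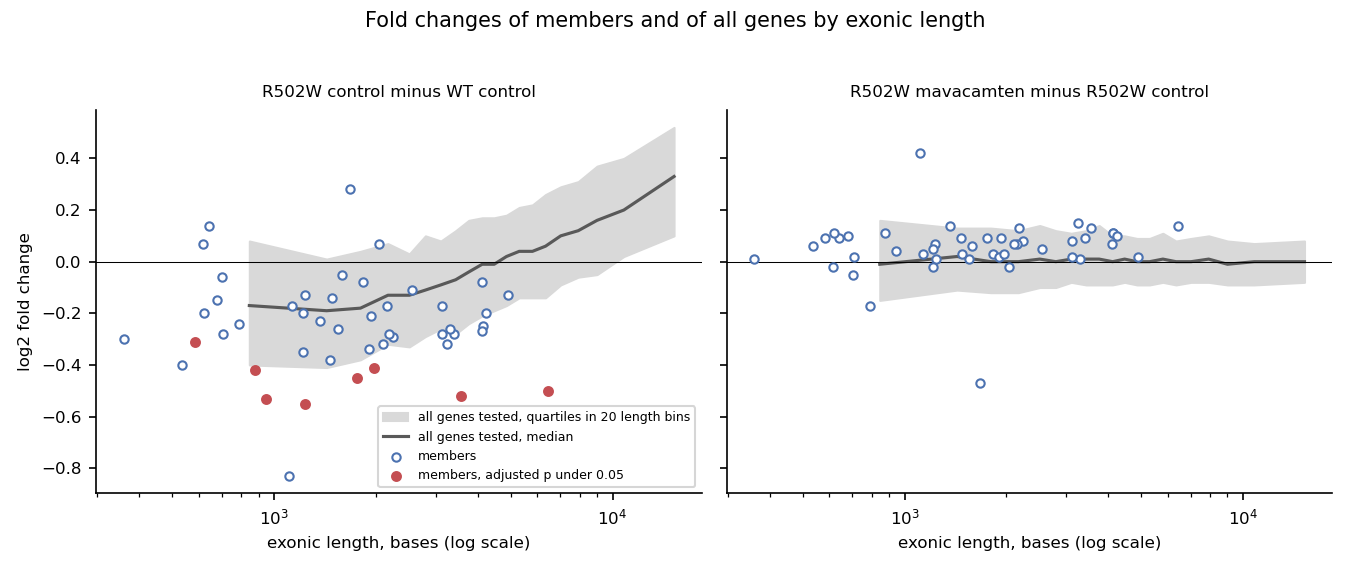
Log2 fold change (vertical axes) against exonic length in bases (horizontal axes, log scale) in R502W control against WT control (left) and under mavacamten (right). The line and band give the median and quartiles of all tested genes in 20 length bins, points are members and filled points passed edgeR's test. On the left the line climbs from -0.17 to 0.33 and most members lie under it, while on the right it stays near 0.

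In mavacamten-treated against control R502W hearts, 0 of the 47 members passed, and 0 of all 15000 genes did (0.0% in each direction). At an unadjusted p under 0.05 edgeR found 0 members and 525 genes (1.7% of all genes lower, 1.8% higher), and DESeq2 called 0 members, with 5 genes lower and 1 higher in all. The members' median log2 fold change was 0.07, with 6 of 47 below 0, where 49.2% of all genes were below 0. Values ran from -0.47 ± 0.44 (SE) for Atp5g2 to 0.42 ± 0.39 (SE) for Cox6b2, both at low levels. With the counts of its pseudogene copies added, a step described below, Atp5g2 stood at 0.0 ± 0.11 (SE). Uqcrh, for example, stood at 190, 206, 228 and 180 CPM in treated hearts, which overlaps the 183 to 223 CPM of R502W control hearts. Its log2 fold change was 0.01 ± 0.11 (SE). The smallest p values in each complex belonged to Sdhc (0.15 ± 0.11), Uqcrfs1 (0.14 ± 0.11), Cox6c (0.13 ± 0.12) and Atp5l (0.14 ± 0.10; log2 fold change ± SE), with edgeR adjusted p of 1 for each.

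In treated R502W against WT control hearts, 5 members were lower and 0 higher, where 2.29% of all genes were lower and 5.93% higher. The 5 are 10.6% of the members, beside 10% of the 389 similar genes by principal length and 7.19% of the 487 by exonic length, all of at least 100 CPM. Whether these shares differ was not tested. This comparison shares its WT libraries with the genotype comparison and its treated libraries with the treatment comparison, so the values are given side by side. Uqcrh had a value of -0.54 ± 0.10 (SE; edgeR adjusted p = 0.0108), beside -0.55 in R502W control hearts. Cox7a2 stood at 155, 154, 168 and 145 CPM in treated hearts, under all 5 WT libraries, at a log2 change of -0.49 ± 0.10 (SE; edgeR adjusted p = 0.0165). The other calls were Atp5l at -0.36 ± 0.10 (SE; edgeR adjusted p = 0.0409), Cox6c at -0.39 ± 0.11 (SE; 0.0434) and Atp5o at -0.37 ± 0.11 (SE; 0.0444). Uqcrh and Cox7a2 kept their calls with each of the 13 libraries left out in turn, while Atp5l and Atp5o lost theirs in 10 of 13 and Cox6c in 9 of 13 such fits.

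The 3 further genes called in the genotype comparison had values of -0.36 ± 0.12 (Atp5e), -0.31 ± 0.12 (Uqcrb) and -0.22 ± 0.09 (Uqcr10; log2 fold change ± SE) in treated hearts and did not pass. The median over members was -0.19, with 42 of 47 below 0, against 49.7% of all genes. For the 389 genes of similar principal length the median was -0.14 with 78.7% below 0, and for the 487 of similar exonic length -0.08 with 68.4% below 0. At an unadjusted p under 0.05 there were 17 members, all of them lower, where 9.85% of all genes were lower and 16% higher. Such a p was held by 135 of the 389 similar genes and 158 of the 487, in either direction. Without regard to the test, 5 members (10.6%) had every treated library below every WT control library, as 3.79% of all genes had. Of the 389 and 487 similar genes, 16.2% and 12.5% did, so the members' share was below both, untested. Of the cell-type markers in this comparison, 3 of 10 cardiomyocyte, 1 of 9 endothelial, 2 of 9 mural and 1 of 8 macrophage markers and Acta1 were higher and 0 were lower in edgeR, and their part in the members' values was not tested. Called or not, 2 of 10 cardiomyocyte, 3 of 9 endothelial, 3 of 9 mural and 5 of 8 macrophage markers were below 0. With the length trend removed, Uqcrh (-0.37, edgeR adjusted p = 0.0213), Cox7a2 (-0.30, 0.0411) and Atp5l (-0.46, 0.027) were lower, beside 1.7% of all genes lower and 2.52% higher. That is 6.38% of the members, beside 6.43% of the 389 similar genes and 4.31% of the 487, untested. With principal transcript lengths, Uqcrh stayed lower (-0.32, edgeR adjusted p = 0.0226), while Cox7a2 (-0.28, 0.0545) and Atp5l (-0.15, 0.312) did not pass. Uqcr11, a small accessory subunit of complex III, was higher with either length, at 0.40 and 0.44 (edgeR adjusted p = 0.047 and 0.0371). Without a length step Uqcr11 stood at 0.22 ± 0.13 (SE, edgeR adjusted p = 0.289).

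Members also shifted together between libraries of the same group. The median deviation of the 47 members from their own means, on the log2 scale, was 0.36, 0.24, -0.03, 0.06 and 0.10 in the 5 WT control libraries. It was -0.22, -0.21, -0.06 and -0.02 in R502W control and -0.18, 0.05, 0.12 and -0.20 in R502W mavacamten libraries. WT control replicate 1 had 45 of 47 members above their means, and R502W mavacamten replicate 4 had 3 of 47. The treated libraries thus split into a higher pair, replicates 2 and 3, and a lower pair, replicates 1 and 4. Complexes II to V gave medians of 0.32, 0.32, 0.36 and 0.39 in WT control replicate 1 and of -0.14, -0.19, -0.21 and -0.24 in R502W mavacamten replicate 4. Within each group, the library with the largest share of mitochondrially encoded counts (27.2% in WT control replicate 1, 25.3% in R502W control replicate 4, 25.1% in R502W mavacamten replicate 3) also had the highest median of members. The part of this share in the members' differences was not tested. Without WT control replicate 1, 7 members were lower in the genotype comparison, and without WT control replicate 2, the library with thymus markers, 9 were, among them all 8 genes named above. Of all genes, 4.46% and 4.67% were lower in these fits, and of the 389 similar genes by principal length, 14.4% and 19.5%.

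**Figure D4:**
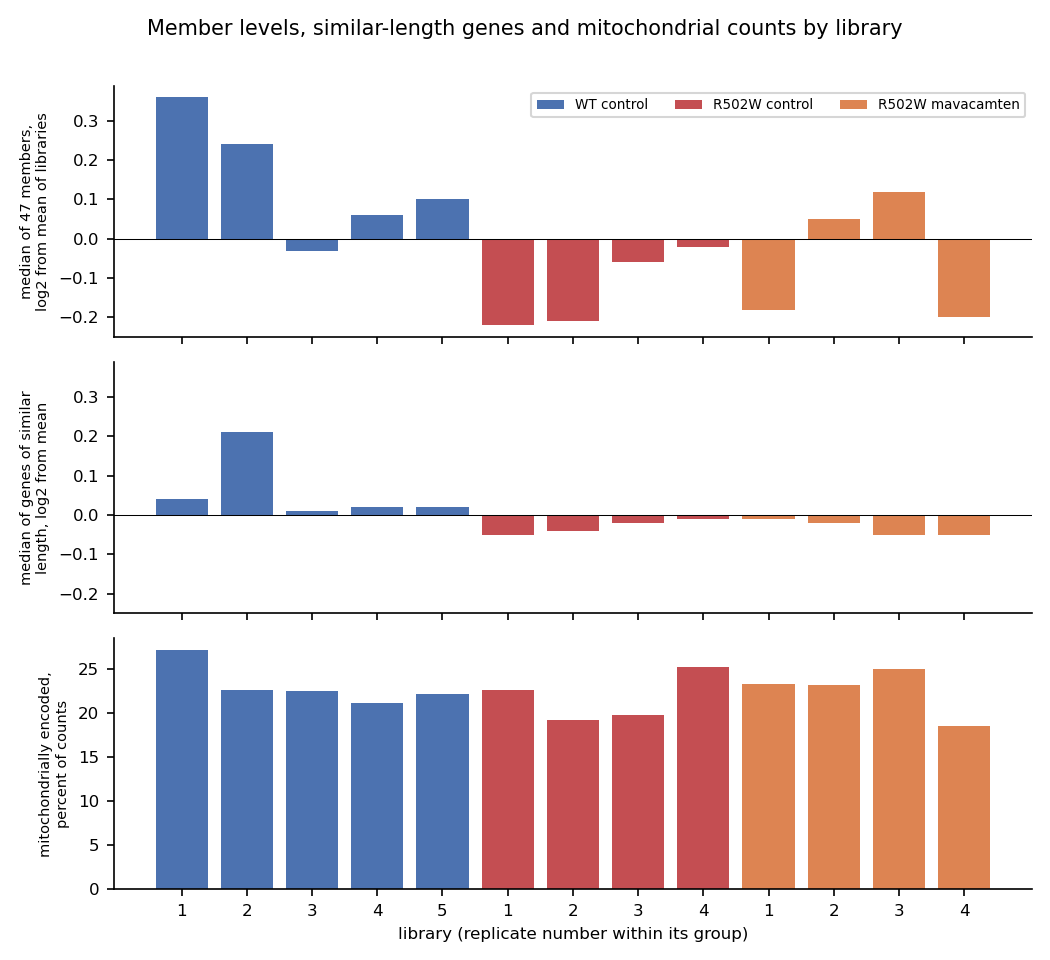
For each of the 13 libraries: the median log2 deviation of the 47 members from their means (top), the same for non-member genes of similar exonic length (middle, same scale) and the percent of counts from mitochondrially encoded genes (bottom). Members range from -0.22 to 0.36, and similar-length genes stay between -0.05 and 0.04 except for 0.21 in WT control replicate 2.

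Complex IV subunits 6a, 7a and 8 each have a muscle form and a widely expressed form. Cox6a2, the muscle form, exceeded Cox6a1 by a log2 ratio of 3.42 ± 0.53 (SD, n = 5) in WT control, 3.33 ± 0.55 (SD, n = 4) in R502W control and 3.53 ± 0.79 (SD, n = 4) in R502W mavacamten hearts. The log2 ratio of Cox8b, the muscle form, to Cox8a was 1.36 ± 0.40, 1.26 ± 0.28 and 1.18 ± 0.46 (SD) in the same order. Cox7a1, the muscle form, and Cox7a2 had similar counts, with log2 ratios of -0.07 ± 0.29, 0.06 ± 0.20 and 0.05 ± 0.29 (SD). Cox7a1 itself fitted at -0.40 ± 0.17 (SE; edgeR adjusted p = 0.137) in R502W control hearts, next to the -0.53 of Cox7a2. For Cox4i1 to Cox4i2 the log2 ratios were 7.61 ± 0.20, 7.64 ± 0.44 and 7.77 ± 0.16 (SD). None of 12 tests on these ratios passed (exact two-sided permutation tests, adjusted p 0.926 to 0.943, smallest possible unadjusted p 0.0159 for 5 against 4 libraries and 0.0286 for 4 against 4).

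Cox6a1 differed between the libraries high in Ucp1 and the rest. It stood at 106, 103 and 115 CPM in those 3 libraries, 1 in each group, and at 50.4 to 83.2 CPM in the other 10. The Cox6a2 to Cox6a1 log2 ratio was 2.57, 2.53 and 2.37 there and 3.24 to 4.03 elsewhere. Cox8a read 92.4, 86.9 and 110 CPM in the same libraries and 63.6 to 94.6 CPM elsewhere, so its ranges overlapped. Cox7a2, the third of the widely expressed forms, read 192, 146 and 145 CPM there, in no group above the other libraries. Cox8b, which brown fat also expresses, stood at 156, 157 and 167 CPM there. The part of fat tissue in these levels was not tested. Without those 3 libraries, Uqcrh, Cox7a2, Atp5l, Cox6c and Atp5e were lower in the genotype comparison. In that fit 1.22% of all genes were lower, and 5.14% of the 389 similar genes by principal length.

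**Figure D5:**
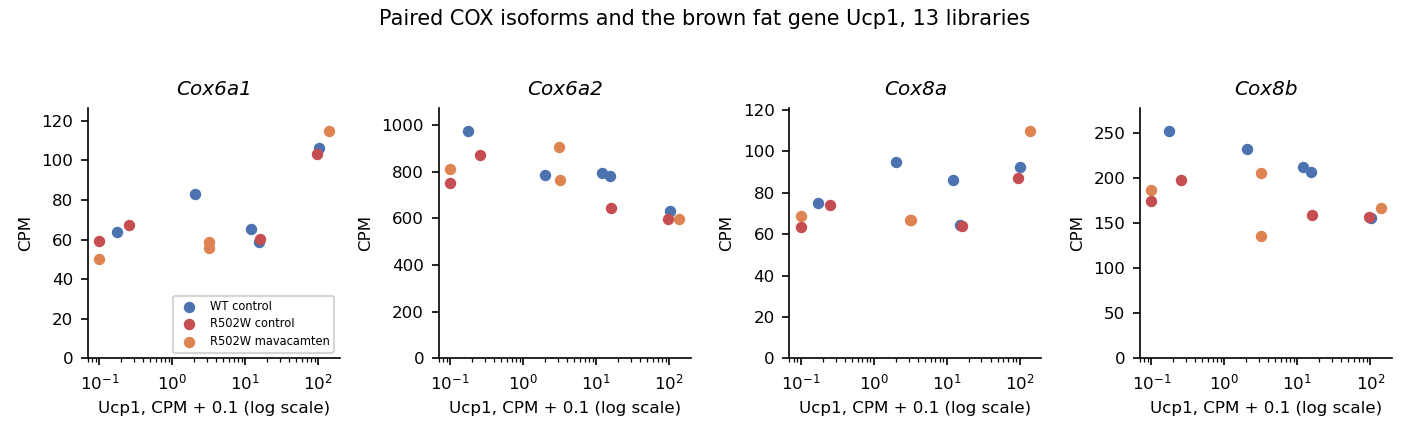
CPM of 4 complex IV isoform genes (vertical axes, from 0) against CPM of Ucp1 plus 0.1 (horizontal axes, log scale) in the 13 libraries, coloured by group. Cox6a1 reads 103 to 115 CPM in the 3 libraries at the right, above the other 10.

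In R502W control hearts, the fitted log2 change of Cox6b1 was -0.28 ± 0.10 (SE; edgeR adjusted p = 0.074) and that of Cox7b -0.35 ± 0.11 (SE; 0.0568). Cox7a2l, which helps join complexes III and IV into supercomplexes, stood at -0.14 ± 0.09 (SE). The c ring of ATP synthase is built from 1 mature protein encoded by 3 genes. Of these, Atp5g3 had 819 ± 120 CPM (SD, n = 5) in WT control hearts, Atp5g1 809 ± 110 CPM and Atp5g2 8.46 ± 2.45 CPM. Their genotype log2 fold changes were -0.28 ± 0.14, -0.13 ± 0.14 and 0.28 ± 0.41 (SE), and none passed.

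The counts of Atp5g2 and Atp5l rest on how reads were shared with processed pseudogenes. For 22 members a pseudogene copy of at least 90% identity over 150 bases was found in the annotation, and copies took over 1% of the summed counts for 3 of them. For Cox7c this was 1.39% to 3.72% across libraries, for Atp5l 13.3% to 22.6% and for Atp5g2 90% to 98.6%. The first 300 bases of each coding sequence, from the GRCm38 transcripts, are shown because the sequence stands without a difference in its main copy, so that a read inside it cannot be assigned by its letters. Atp5g2 lies at chr15:102662864-102672352 (minus strand) and its copy Gm10175 at chr7:23946646-23947290 (minus strand). Atp5l lies at chr9:44912557-44920742 (minus strand) and its copy Gm10221 at chr5:24581554-24581862. Capitals mark the start codon. The identity covers all 441 coding bases of Atp5g2 and 309 of the 312 of Atp5l, ending before the stop codon of the latter.
Atp5g2: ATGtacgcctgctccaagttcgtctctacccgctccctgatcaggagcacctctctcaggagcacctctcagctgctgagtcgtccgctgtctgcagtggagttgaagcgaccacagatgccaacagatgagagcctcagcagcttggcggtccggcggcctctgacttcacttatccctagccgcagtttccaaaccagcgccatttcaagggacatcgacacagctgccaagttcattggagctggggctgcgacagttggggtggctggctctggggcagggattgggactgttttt
Atp5l: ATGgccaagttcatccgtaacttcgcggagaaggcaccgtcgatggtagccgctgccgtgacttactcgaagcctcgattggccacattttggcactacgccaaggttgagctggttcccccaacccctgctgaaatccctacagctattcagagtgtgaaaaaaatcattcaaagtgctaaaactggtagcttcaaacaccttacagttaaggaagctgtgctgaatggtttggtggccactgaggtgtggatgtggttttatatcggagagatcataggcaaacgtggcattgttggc

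Gm10175 was listed at 178 ± 20.5 CPM (SD, n = 5) in WT control, 146 ± 15.6 CPM (n = 4) in R502W control and 149 ± 18.3 CPM (n = 4) in R502W mavacamten hearts, far above Atp5g2 itself. Gm10221 was listed at 41.7 ± 8.91, 42.0 ± 5.27 and 38.4 ± 6.04 CPM (SD). With the counts of copies added to their members, the genotype log2 fold change of Atp5g2 turned from 0.28 to -0.26 (edgeR adjusted p = 0.128), and that of Atp5l was -0.40 (adjusted p = 0.0247). In treated R502W against WT control hearts, the summed Atp5l no longer passed, at -0.32 (adjusted p = 0.0789). The direction of Atp5g2 therefore depended on where these reads were counted.

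The members' RefSeq promoter windows (250 bases before to 50 after the start, GRCm38.p6) were searched on both strands for letters of factors known to act on respiratory genes. A window was matched by symbol for 34 tested members. The ETS motif CCGGAAG, read by GABP, was in 11 of the 34 (32.4%), against 8.86% of all 32851 windows. The NRF1 motif, GCGCA and GCGC with any base between them, was in 9 (26.5%), against 4.6% of all windows. CCAAT stood in 19 (55.9%, against 37.4%), the ERR motif TCAAGGTCA in 2 (5.88%, against 0.423%) and the YY1 motif, AAGATG followed at once by GCGGC, in 0 (against 0.633%). Among the 8 genes lower in R502W control hearts, 6 had a window, of which 3 held the ETS motif, 4 CCAAT and 1 the NRF1 motif. A match is a description of letters and not a sign of binding. Shares were set beside all windows only, not beside those of genes at similar levels, and any link to the fold changes was not tested. The 250 bases before the start are printed for those with the ETS motif, with ETS and CCAAT matches of either strand in capitals. They lie at chr4:116075071-116075320 (Uqcrh), chr2:174464102-174464351 (Atp5e) and chr9:44920743-44920992 (Atp5l), all on the minus strand and written 5′ to 3′ toward the gene.
Uqcrh: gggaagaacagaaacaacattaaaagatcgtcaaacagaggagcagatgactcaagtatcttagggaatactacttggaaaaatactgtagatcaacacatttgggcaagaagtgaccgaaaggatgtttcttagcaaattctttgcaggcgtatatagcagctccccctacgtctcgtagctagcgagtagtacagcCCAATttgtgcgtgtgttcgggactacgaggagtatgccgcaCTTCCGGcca
Atp5e: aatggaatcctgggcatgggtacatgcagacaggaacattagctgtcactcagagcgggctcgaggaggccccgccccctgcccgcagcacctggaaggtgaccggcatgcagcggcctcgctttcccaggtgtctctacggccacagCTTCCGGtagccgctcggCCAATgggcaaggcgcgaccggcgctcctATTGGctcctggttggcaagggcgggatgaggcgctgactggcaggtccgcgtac
Atp5l: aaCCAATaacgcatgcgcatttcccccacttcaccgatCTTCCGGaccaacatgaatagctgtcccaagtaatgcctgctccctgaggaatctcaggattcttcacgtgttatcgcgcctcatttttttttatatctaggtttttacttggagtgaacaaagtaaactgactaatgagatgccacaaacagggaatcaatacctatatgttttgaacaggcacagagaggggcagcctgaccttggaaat

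The ETS match ends close to the start of Uqcrh, beginning 10 bases before it, and lies 102 bases before the start of Atp5e and 212 bases before that of Atp5l. In Atp5e it is followed by CCAAT matches on opposite strands, 84 and 55 bases before the start.

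Other genes of the respiratory chain were counted from lists. Of the 6 subunits of complexes III to V encoded by the mitochondrial genome, 0 passed in the genotype comparison, with 0 at an unadjusted p under 0.05 in edgeR and 0 calls in DESeq2. Their median log2 fold change was 0.06, and values ran from -0.28 ± 0.17 (SE) for mt-Cytb, the cytochrome b of complex III, to 0.82 ± 0.48 (SE) for mt-Co3. The 41 assembly factors of complexes II to V also had 0 calls in edgeR (7 at an unadjusted p under 0.05; DESeq2 called 1), and their median was -0.01. Cox11, a copper chaperone of complex IV, was higher in treated R502W than in WT control hearts, by 0.39 ± 0.10 on the log2 scale (SE; edgeR adjusted p = 0.0328). The 7 tested further parts of the complexes, among them Ndufa4, Usmg5 and the inhibitor Atpif1, had 0 calls in the genotype comparison (3 at an unadjusted p under 0.05; DESeq2 called 2), with a median of -0.22. The 18 genes of mitochondrial mass and carriers had 0 calls in edgeR (2 at an unadjusted p under 0.05; DESeq2 called 2) and a median of -0.02. Cs, the citrate synthase often used as a measure of mitochondrial content, stood at 0.02 ± 0.11 (SE). Of 36 nuclear complex I subunits, 2 were lower in R502W control hearts, Ndufa7 at -0.41 ± 0.10 (SE; edgeR adjusted p = 0.0176) and Ndufv2 at -0.40 ± 0.12 (SE; 0.0394), and the median was -0.18. That is 5.56% of them, beside 3.75% of all genes. Of the 36, 35 were below 0, 13 had an unadjusted p under 0.05 in edgeR and DESeq2 called 9 lower. Of the 389 genes of similar principal length to the members, 79.7% were below 0 and DESeq2 called 26.7% lower, beside 6.72% of all genes. With the exonic length trend removed, complex I had a median of -0.09, with 1 lower and 1 higher in edgeR. With the principal-transcript trend removed its median was -0.06, with 24 below 0 and 0 lower. The median of the 7 further parts went to -0.06 and -0.02 in these fits. In treated R502W against WT control hearts, Ndufa7 (-0.40 ± 0.10, edgeR adjusted p = 0.0306) and Ndufa1 (-0.34 ± 0.09, 0.0349; log2 fold change ± SE) were lower. By edgeR, Cox11 and these complex I genes were the only calls of the 5 lists in that comparison. The complex I calls are 5.56% of the 36, where 2.29% of all genes and 10% of the 389 were lower and 5.93% of all genes higher. DESeq2 there called 6 complex I genes, 1 assembly factor and 1 of the further parts lower and 1 assembly factor higher. It called 4.75% of all genes and 23.1% of the 389 lower, and 7.11% of all genes higher. None of the lists had an edgeR call under treatment.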

How the data were processed

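The authors deposited a gene table of expected counts per library; RSEM, cutadapt, FastQC and DESeq2 are named without versions in the submitters' processing notes, with build GRCm38, and the libraries were strand-specific per the labels' protocols. Their aligner and settings are not given in the sources used here. Values were rounded to whole counts (5.76% were fractional). IDs were matched to GENCODE M21 (55230 of 55471). Genes passing filterByExpr (minimum count 10, total 15) were tested with edgeR 4.0.16 in R 4.3.3: TMM scaling, quasi-likelihood fit of all 13 libraries with 1 mean per group, Benjamini-Hochberg adjustment, threshold 0.05. CPM uses TMM library sizes. Replicates differed beyond sampling noise (chi-square per degree of freedom 7.6 to 110 over 22 pairs), so no library was counted as a repeat.

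Length trends were removed as lowess curves (span 0.3) per library. Isoform ratios used a pseudocount of 0.5. Copies were sought with blastn 2.17.0. Alternatives were DESeq2 1.42.0, other filters and scaling, the 2 compared groups alone, sample number as a block and left-out libraries; removal by principal transcript length, added copies, and the sets of libraries low in Bmp10 or high in Adipoq or Ucp1 were chosen after seeing the data. The fits were run on simulated data first; there, a length trend left in place raised the share of calls that were unchanged genes, and its removal lowered it again. The members and lists were chosen with earlier results of these data known. Named genes are every called member, the isoforms and paralogues, per complex the smallest p in each comparison and the highest level per kb, members below the filter, and up to 4 called genes of each further list with the smallest adjusted p; a few further catalytic subunits and list members were named after their values were seen.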

Additional observations from a re-analysis of the deposited data

Results flagged for a closer look

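In 141 groups of 4 or 5 libraries (47 members in 3 groups), 7 single values stood away from the rest of their group by Dixon's test at the 95% level; chance flags about 1 in 20 groups, or 7.05 here. Sdhd read 393 CPM in WT control replicate 1, against 319 to 331 CPM in the other WT libraries, and Uqcrc2 810 CPM in the same library against 627 to 675 CPM. In R502W mavacamten replicate 4, Atp5g1 read 596 CPM (others 789 to 817 CPM). There, Cox6a1 was at 115 CPM (others 50.4 to 58.5 CPM) and Cox8a at 110 CPM (others 66.6 to 68.7 CPM), where Ucp1 stood at 138 CPM. Cox4i2 was at 7.32 CPM in WT control replicate 2 (others 4.93 to 5.42 CPM). Cox6b2 was at 2.15 CPM in WT control replicate 4 (others 1.26 to 1.47 CPM). No cause of these values was tested.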

How the results depend on the processing

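The 8 members lower in R502W control hearts became 13 with RLE size factors, 15 with a minimum count of 50 and 19 with DESeq2, each including the 8. Of all genes, 4.6%, 6.41% and 6.72% were lower in these fits, and of the 389 genes of similar principal length and at least 100 CPM, 17.5%, 22.1% and 26.7%. The 8 became 5 with the length trend removed, 4 without the 3 libraries low in Bmp10 and 5 without the 3 high in Ucp1. Of all genes, 3.53%, 0.782% and 1.22% were lower in these fits, and of the 389, 10.3%, 3.08% and 5.14%. Leaving out 1 library gave 4 to 13 calls and medians of -0.30 to -0.22. The count was 4 without R502W control replicate 1, 2 or 3. There, 1.36% to 1.73% of all genes and 5.66% to 8.74% of the 389 were lower. It was 13 without R502W mavacamten replicate 1, 3 or 4. There, 4.3% to 4.97% of all genes and 16.5% to 18.5% of the 389 were lower. Uqcrh, Cox7a2, Atp5l and Cox6c kept their calls throughout. The genotype median was -0.1 with the principal-transcript trend removed. The 5 members lower in treated R502W against WT control hearts became 2 without a filter, 10 with DESeq2 and 2 with only the 2 groups compared. Of all genes, 0.802%, 4.75% and 0.505% were lower in these fits, and of the 389, 7.97%, 23.1% and 1.54%. The 5 became 2 with the principal-transcript trend removed (1 lower, 1 higher) and 1 without the libraries low in Bmp10. They became 2 without the 4 high in Adipoq and 1 without those high in Ucp1. In the same order, 1.09%, 0.199%, 1.39% and 0.555% of all genes were lower, and 2.83%, 1.03%, 7.97% and 3.08% of the 389. Leaving out 1 library gave 2 to 6 calls, with medians of -0.28 to -0.14. The treatment comparison had 0 member calls in every setting run, with medians of 0.02 to 0.11 over left-out libraries. With the replicate block, 4 members were called in the genotype comparison, where 1.47% of all genes and 6.68% of the 389 were lower. In the treated against WT comparison 0 members were called, where 0.54% and 4.11% were lower. Same-numbered libraries did not deviate together across genes (correlations of -0.323 to 0.253). Such correlations cannot exclude that the numbers pair the samples. No called member changed sign in the alternatives run. At these depths counting error is small for all but the lowest members, and the spread between libraries sets the limit. The cause of these changes was not tested.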
